A study of Mus musculus with 8 samples.

Results

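The cells described here are untreated mouse bone marrow macrophages, and their resting program is set out gene by gene, library by library and cell by cell. Members were chosen by 4 measured values. A barcode of the 4 control libraries needed 300 or more detected genes, and no more than 20% of its UMIs (unique molecules) could come from mitochondrially encoded genes. It also needed more UMIs there than in any other table of its date stamp, and fewer than 3 of the granule genes Ngp, Ltf, Camp, Lcn2, S100a8 and S100a9. This gave 1838 cells of 20000 control barcodes listed, with 918, 280, 285 and 355 cells in control replicates 1 to 4. The same rule gave 6799 cells in the 4 CYR61 libraries and 8637 of all 40000 barcodes. These measured values chose the cells, so their marker and granule gene levels are a description and not a result.

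The study cultured bone marrow of C57Bl/6J mice for 3 days in M-CSF, and exposed the cells for a further 24 h to 4 µg/mL of CYR61 or left them without it. CYR61 is a secreted matricellular protein encoded by Ccn1. All mice were labelled male and 10 weeks old, and no genetic change was named in either group. Cells were lifted with accutase and profiled on HIVE, a microwell device that captures single cells and tags their RNA molecules. No label tells if the replicates came from different animals or cultures, so p-values measure the spread between libraries alone. Control replicates 1 and 2, with 1198 members, carried an earlier date stamp than replicates 3 and 4, with 640.

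M-CSF signals through its receptor Csf1r and carries marrow precursors into macrophages under the transcription factor PU.1, the product of Spi1. Such cells are known for an acidified lysosome full of cathepsin proteases, for receptors that bind debris and lipoproteins, and for handling the iron and fat of what they engulf. Interferons and microbial products switch on further gene sets that resting cultures keep low.

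Library quality bears on everything below. Members held 1489320, 505825, 700632 and 682381 UMIs in control replicates 1 to 4, with medians of 835.5, 964.5, 991 and 1087 UMIs and 494.5, 561, 559 and 593 genes per cell. Near the gene minimum lay 197 members with 300 to 330 genes and 215 barcodes outside it with at least 270. Tables of the same date shared barcodes, with 5153 shared pairs of cells against 67 between dates. After the assignment no 2 members shared a barcode within a date and 10 did across dates. Members also listed elsewhere within their date made up 0.109, 17.5, 4.91 and 50.4% of control replicates 1 to 4. For 1, 49, 8 and 179 members, in that order, the other table with most UMIs was a CYR61 table. Members with less than 3 times the UMIs of the other table numbered 1, 47, 0 and 147. For these cells the assignment to control is less sure. Against the male label, Xist, the RNA of the inactive X chromosome, stood at 1190 and 1188 CPM (a gene's UMIs per 1000000 UMIs of the library's members) in control replicates 2 and 3, and at 0 in replicates 1 and 4. The sum of Y-linked genes was 346 CPM in replicate 1 and 289 CPM in replicate 4 of the controls, but 1.98 CPM in replicate 2 and 4.28 CPM in replicate 3. Each date therefore held 1 control library of each kind. In the CYR61 group Xist was at 1199 and 1155 CPM in replicates 1 and 2, of the earlier date, and at 0 in replicates 3 and 4, so there the date and the Xist split cannot be told apart.

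The 4 marker genes of the macrophage label all reached at least 10 CPM in every control library. Csf1r, the M-CSF receptor, was at 339.8, 324.2, 322.6 and 376.6 CPM in control replicates 1 to 4. Adgre1, which encodes F4/80, pooled to 462 CPM (95% Poisson interval 439 to 486), the endosomal glycoprotein Cd68 to 894 CPM (862 to 926) and the integrin Itgam to 1349 CPM (1310 to 1388). In 11 granule-rich control cells, with 5% or more of their UMIs from the granule genes, Cd68 was at 347 CPM (166 to 637), below members, and Itgam at 3119 (2508 to 3833), above them. Adgre1 was at 208 CPM there (76.3 to 453) and Csf1r at 173 (56.3 to 404), against 341 (322 to 362) for Csf1r in members, and for both genes the intervals of these cells and of members overlap. Single cells were read thinly, so 30.9% of members had a Csf1r UMI, 39.7% an Adgre1 UMI, 55.6% a Cd68 UMI and 62.7% an Itgam UMI, at a median of 901.5 UMIs. The granule-rich cells, at a median of 1076 UMIs, had 45.5, 36.4, 36.4 and 63.6% for the same genes, so the Csf1r, Adgre1 and Itgam shares are not read as expression per cell. Intervals cover counting error only.

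Markers of other cells were near or at 0, apart from low monocyte, neutrophil and osteoclast signals. The macrophage list summed to 2979 to 3553 CPM in CYR61 libraries, against 2594 to 3253 CPM in control libraries. Monocyte markers summed to 80.7 to 126 CPM in CYR61 libraries, against 72.8 to 126 CPM in control libraries, with 1 of 6 at 10 CPM or more in every control library. Neutrophil markers summed to 137 to 689 CPM in CYR61 libraries, against 127 to 473 CPM in control libraries, with 2 of 10 at that level. Osteoclast markers summed to 127 to 427 CPM in CYR61 libraries, against 64.2 to 188 CPM in control libraries, and the calcitonin receptor Calcr was at 0 in every control library. In the control libraries erythroid markers were all at 0, and T and NK cell markers summed to at most 1.47 CPM, mast cell markers to at most 1.47, dendritic markers to at most 1.47 and endothelial markers to at most 4.03. B cell markers reached 8.79 to 39.96 CPM in the controls with Cd79a and Ms4a1 at 0. Megakaryocyte markers reached 4.28 to 45.4 CPM, progenitor markers 0 to 24.2 and stromal markers 0 to 11.7.

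The granule rule left out 219 of 2057 assigned control cells, and most of these did not look like granulocytes. They were deep, with a median of 8271 UMIs against 901.5 in members, and held 56.7, 57.1, 16.8 and 32.0% of the UMIs of assigned cells in control replicates 1 to 4. Only 24 of the 219 drew 1% or more of their UMIs from the 6 granule genes. Their marker levels were 438 CPM for Csf1r, 491 for Adgre1, 947 for Cd68 and 1576 for Itgam, near those of members. Members are thus the shallower cells of the cultures, and S100a9 was still found in 355 and S100a8 in 263 of the 1838.

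Genes of several kinds led the resting program, among them ferritin genes, the nuclear RNA Malat1, and genes for secreted and lysosomal proteins. The 20 genes with the highest mean took 15.1, 12.0, 12.0 and 13.9% of UMIs in control replicates 1 to 4, and 14 of them were also among the top 20 per kilobase of exon. Ferritin heavy chain Fth1, which stores iron, averaged 14375 ± 6471 CPM (SD, n = 4 here and below). The nuclear RNA Malat1 was next at 13213 ± 1294 CPM. Lipoprotein lipase Lpl, which frees fatty acids from lipoproteins, held 12482, 12234, 13162 and 11126 CPM in control replicates 1 to 4. Lpl was found in 99.3% of members, but also in 72.7% of the 11 granule-rich control cells, at 2495 CPM. On mm10, Fth1 lies on chromosome 19 from 9980598 to 9985098 on the plus strand and Lpl on chromosome 8 from 68880491 to 68907448 on the plus strand. The glycoprotein Gpnmb averaged 9506 ± 2759 CPM, lysozyme Lyz2 9200 ± 2564 and the cathepsin Ctsb 9149 ± 1096. Lpl and Ctsb were steadier across libraries than Fth1, whose highest control library stood well above its lowest.

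Among the next genes the elastase Mmp12, which cuts elastin outside the cell, was at 6005, 6057, 7022 and 4467 CPM in control replicates 1 to 4. The secreted phosphoprotein Spp1, osteopontin, held 4328, 4974, 4189 and 3665 CPM. The fatty acid and lipoprotein receptor Cd36 ranged more widely, at 4695, 5626, 7188 and 2990 CPM. The galectin Lgals3 averaged 7159 ± 1499 CPM, the actin-sequestering Tmsb4x 6771 ± 86.5, the cathepsins Ctss 6291 ± 874, Ctsd 6286 ± 732 and Ctsl 3809 ± 513, and the saposin precursor Psap 4247 ± 1413. The remaining places went to ferritin light chain Ftl1 at 3123 ± 1124 CPM, the intermediate filament Vim at 3072 ± 176, the actin Actb at 3015 ± 896, the lysosomal glycoprotein Creg1 at 2861 ± 470 and the acid lipase Lipa at 2835 ± 483. Replicate 4 was the lowest of the controls for Lpl, Mmp12, Cd36 and Spp1, and for Lpl and Spp1 the spread was small. None of the 20 was called between CYR61 and control.

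**Figure D1:**
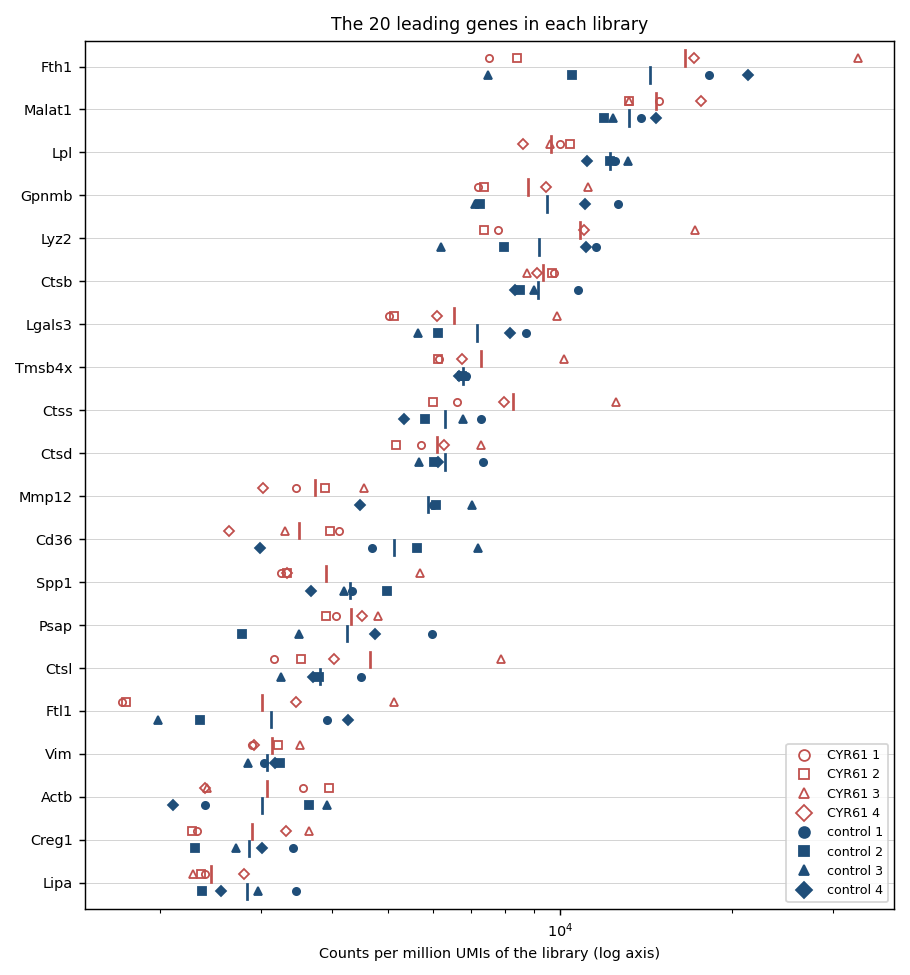
The 20 genes with the highest mean level in control members, on a log axis of CPM, with 1 point per library and a bar at each group's mean, CYR61 as open points above control as filled points. Fth1 averages 14375 CPM and Lipa 2835 CPM in control libraries, and Tmsb4x and Vim have the tightest control points.

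Ribosomal RNA was a large share of these libraries beside the named genes. Mitochondrial rRNA took 5.52 to 8.34% of UMIs in the control libraries and 18S rRNA 3.42 to 4.78%. Mitochondrially encoded mRNA took 1.41 to 2.22% and the 88 ribosomal protein genes 0.904 to 1.23%. Median mitochondrial shares per cell were 7.54, 13.1, 14.5 and 12.2% in control replicates 1 to 4, lowest in the library with most cells.

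The promoters of 4 leading genes are shown because each holds a short sequence linked to a regulator known in macrophages. They are RefSeq windows on GRCm38.p6, from 250 bases before to 50 after a listed start, 300 bases each, and capitals mark the motif. Mmp12 at chr9:7344147-7344446 on the plus strand and Spp1 at chr5:104434861-104435160 on the plus strand hold the PU.1-type motif GAGGAAGT, on the reverse strand in Mmp12. Ctsd at chr7:142387778-142388077 on the minus strand holds TCACGTGA, the E-box core of the CLEAR element bound by TFEB and MITF family factors. Gpnmb at chr6:49036268-49036567 on the plus strand holds the AP-1 motif TGAGTCA on the reverse strand. Mmp12 and Spp1 have 2 listed promoters each, and a promoter with the motif is shown.
Mmp12: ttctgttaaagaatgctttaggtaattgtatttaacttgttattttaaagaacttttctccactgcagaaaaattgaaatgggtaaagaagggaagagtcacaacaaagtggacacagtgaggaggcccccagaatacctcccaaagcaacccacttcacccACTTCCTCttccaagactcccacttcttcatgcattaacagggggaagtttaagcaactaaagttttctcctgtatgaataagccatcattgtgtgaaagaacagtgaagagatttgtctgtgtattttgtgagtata
Spp1: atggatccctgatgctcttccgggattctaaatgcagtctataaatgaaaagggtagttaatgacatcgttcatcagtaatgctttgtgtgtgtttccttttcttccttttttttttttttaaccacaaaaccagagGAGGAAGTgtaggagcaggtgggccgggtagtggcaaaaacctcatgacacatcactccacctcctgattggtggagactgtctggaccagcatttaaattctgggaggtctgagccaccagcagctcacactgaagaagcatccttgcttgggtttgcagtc
Ctsd: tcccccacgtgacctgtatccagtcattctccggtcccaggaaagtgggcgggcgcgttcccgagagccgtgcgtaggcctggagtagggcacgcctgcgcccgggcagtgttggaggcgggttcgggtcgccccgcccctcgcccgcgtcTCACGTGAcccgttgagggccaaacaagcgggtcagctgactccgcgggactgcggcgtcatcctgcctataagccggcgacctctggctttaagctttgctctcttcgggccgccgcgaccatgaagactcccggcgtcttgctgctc
Gpnmb: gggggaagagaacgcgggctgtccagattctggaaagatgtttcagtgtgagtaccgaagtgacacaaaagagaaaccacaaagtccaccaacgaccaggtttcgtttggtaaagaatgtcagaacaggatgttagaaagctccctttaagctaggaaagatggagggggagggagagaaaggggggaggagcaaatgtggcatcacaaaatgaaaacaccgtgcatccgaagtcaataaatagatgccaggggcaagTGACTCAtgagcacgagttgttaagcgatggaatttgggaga

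Searched on both strands, GAGGAAGT was in 3.69% of the 27025 genes with a promoter in the RefSeq table, and in 3 of the 17 leading genes that had one, namely Ctss, Mmp12 and Spp1. The AP-1 motif was in 5.95% of all genes and in 3 of those 17, Gpnmb, Mmp12 and Psap. The CLEAR motif was in 1.12% of all genes, in Ctsd alone of the 17, and in Ctsa and Ctsd of the 26 lysosome genes with a promoter. GAGGAAGT was in 3 of those 26 and TGAGTCA in 4. Each of the 4 windows held the marked motif and neither of the others, so none overlap, and a match is a description of letters, not of binding.

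The lysosome was the largest of the 26 gene lists, at 5.75 ± 0.758% of UMIs in control members, and all 33 of its genes reached 10 CPM in every control library. Beyond the cathepsins, the membrane glycoprotein Lamp1 averaged 2140 ± 188 CPM. The V-ATPase, the proton pump that acidifies the lysosome, took 0.697 ± 0.0464% with 15 of 16 subunit genes at that level. Its membrane subunit Atp6v0d2 averaged 2158 ± 303 CPM and the catalytic Atp6v1a 830 ± 110 CPM. The phagocyte oxidase, which makes superoxide, took 0.296 ± 0.0507%, with 7 of 7 genes detected and Cybb, its catalytic subunit, at 1131 ± 299.4 CPM. Membrane, pump and protease genes of this compartment were therefore all present. CPM is not corrected for gene length, so these values are not an order of the genes.

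Secreted matrix and protease genes came next, at 2.97 ± 0.408% of UMIs, with 16 of 23 genes at 10 CPM or more in every control library. Gpnmb, Lgals3, Mmp12 and Spp1 made up most of it. Timp1 and Pdgfc had no UMI in any control library, which allows up to 0.888 CPM each (3 counts over the 3378158 UMIs of the group). Insulin-like growth factor Igf1 averaged 2120 ± 498 CPM. It was counted with the alternative activation list, which summed to 0.361 ± 0.0507% and had 6 of 16 genes detected. Within that list the lipid receptor Trem2 averaged 747 ± 183 CPM and the mannose receptor Mrc1 406 ± 160. Retnla, Ccl17, Ccl22 and Ccl24, products of macrophages exposed to interleukin 4, were at 0 in every control library, and Arg1 was at 1.34, 0, 8.56 and 0 CPM.

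Lipid handling genes took 2.57 ± 0.144% of UMIs, with 17 of 18 measured genes at 10 CPM or more in every control library. After Lpl and Cd36, the lipoprotein Apoe was at 3626, 2054, 1607 and 3357 CPM in control replicates 1 to 4, and the fatty acid carrier Fabp5 at 2233, 1091, 963 and 2395. Both were higher in replicates 1 and 4 than in replicates 2 and 3, with no overlap. Cholesterol synthesis was small and even at 0.127 ± 0.00877% of UMIs, with 12 of 18 genes detected and Hmgcs1, which makes its early precursor, at 231 ± 34.4 CPM. Iron handling took 1.99 ± 0.760%, most of it ferritin, and had 11 of 14 genes detected. Heme oxygenase Hmox1 averaged 435 ± 31.6 CPM, the iron exporter Slc40a1 350 ± 70.7 and the phagosomal metal transporter Slc11a1 442 ± 206.

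Surface receptors took 1.31 ± 0.0646% of UMIs, with 20 of 23 genes detected. The adaptor Tyrobp averaged 1763 ± 235 CPM, the beta-glucan receptor Clec7a 1545 ± 188 and the inhibitory receptor Lilrb4a 1163 ± 296. The fractalkine receptor Cx3cr1 was at 0.671, 5.93, 0 and 0 CPM. Scavenger and efferocytosis receptors took 0.876 ± 0.20%, with 11 of 17 genes detected, led by Cd36 and by Msr1 at 1056 ± 287 CPM. Clec4f, Tyro3 and Timd4 were at 0 in every control library, and Cd163 and Marco stayed under 6 CPM in each. Receptors of marrow-derived cultures were thus present while several that mark resident liver or peritoneal macrophages were near or at 0.

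Lineage regulators took 0.440 ± 0.0338% of UMIs, with 18 of 20 detected. Zeb2, which maintains myeloid identity, averaged 874 ± 108 CPM and Spi1 372 ± 55.7 CPM. Csf1 itself, the gene for M-CSF, was at 5.37, 5.93, 0 and 13.2 CPM. Stress and metabolic lists were of middle size. Unfolded protein response genes took 0.469% of UMIs, led by the chaperones Hsp90b1 at 1613 ± 431 CPM and Hspa5 at 1169 ± 223. NRF2 targets took 0.440%, led by the peroxidase Prdx1 at 1374 ± 131 CPM. Nuclear respiratory chain genes took 0.423% and glycolysis 0.174%, and immediate early genes took 0.255%, led by Klf6 at 529 ± 52.3 CPM.

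Immune effector genes were split. MHC class I took 0.542 ± 0.0338% of UMIs, with B2m, its light chain, at 1917 ± 88.0 CPM. The MHC class II list took 0.645 ± 0.0918%, but nearly all of that was the protease Ctss. Its invariant chain Cd74 was at 108.8, 33.6, 15.7 and 48.4 CPM in control replicates 1 to 4, and the class II transactivator Ciita was at 1.34, 0, 1.43 and 0. Complement took 0.221%, with the anaphylatoxin receptor C3ar1 at 949 ± 316 CPM and the C1q chain C1qb at 536 ± 132. Chemokines took 0.188%, led by Pf4 at 715 ± 229 CPM, Ccl9 at 495 ± 317 and Ccl6 at 431 ± 103, while Ccl8, Ccl12, Ccl24, Cxcl1 and Cxcl10 were at 0. Inflammatory mediators took the smallest share of the 26 lists, at 0.0244 ± 0.00953%, and Il1b, Il6, Il12b and Nos2 had no UMI in any control library, which allows up to 0.888 CPM each.

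**Figure D2:**
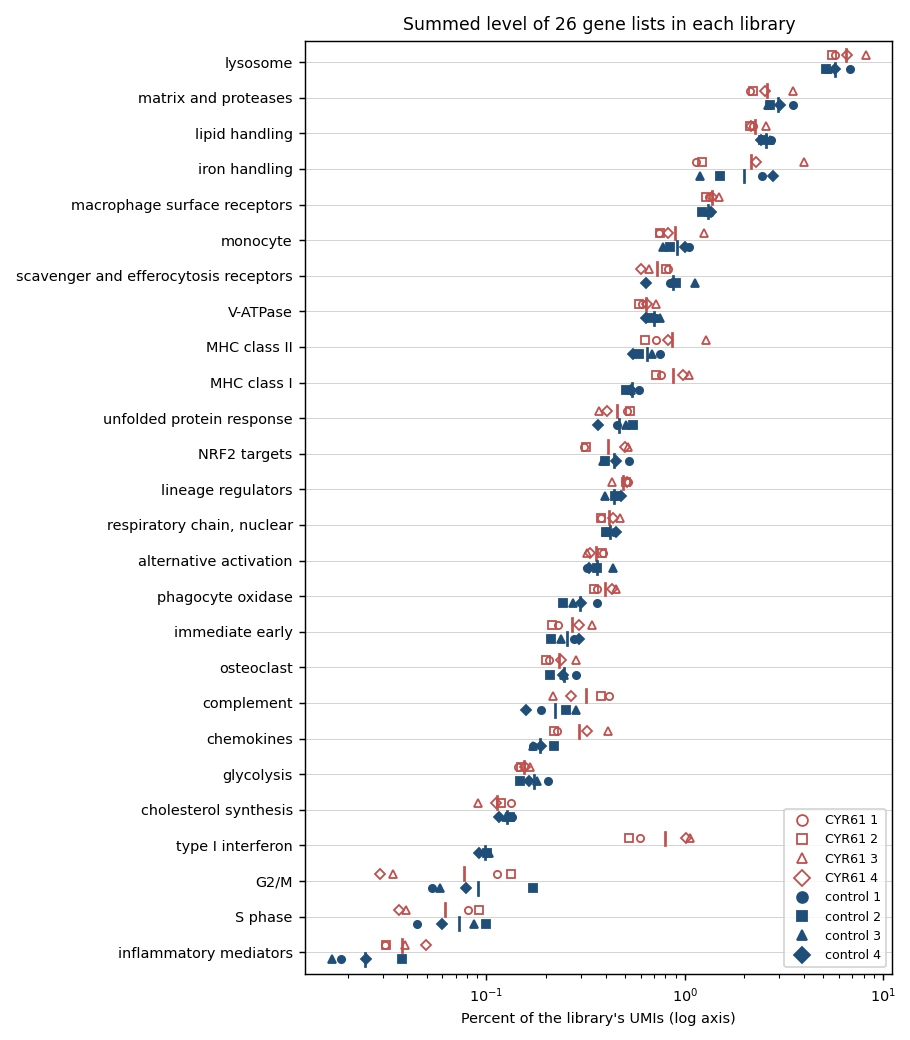
Summed share of UMIs of each gene list in percent on a log axis, with 1 point per library and a bar at each group's mean, CYR61 as open points above control as filled points. Control shares run from 5.75% for the lysosome to 0.0244% for inflammatory mediators, and the type I interferon list stands apart with 0.800% in CYR61 libraries and 0.0990% in control libraries.

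Levels repeated across the control libraries within a known margin. Genes with at least 50 CPM in every control library, called resting genes below, numbered 2602 of 32249 in the tables and held 78.1 to 79.2% of UMIs. Their median coefficient of variation over the 4 libraries was 20.5%. Pearson's r of their log2 CPM, across genes that are not independent, ran from 0.850 to 0.946 over the 6 pairs of libraries. The closest pairs were replicates 1 and 4 at 0.946 and replicates 2 and 3 at 0.934, each a pair across dates that shared its Xist or Y-linked RNA. The most distant were replicates 3 and 4 at 0.850 and replicates 2 and 4 at 0.876.

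The date itself gave no called gene. Later against earlier control libraries, 0 of 9569 genes passed an adjusted p of 0.05 in edgeR's quasi-likelihood test (0%), whose smallest adjusted p was 0.994. At an unadjusted p under 0.05 it found 200 genes higher and 230 lower, and DESeq2 called 0 with 411 at an unadjusted p under 0.05. With 2 libraries a side this says little of differences of moderate size. Each side also held a library with Xist and a library with Y-linked RNA, and the fit had no term for that split. Differences along it therefore counted as spread within a date. Groups did not overlap between dates for 519 resting genes (19.9%). Between control libraries with Xist and those with Y-linked RNA, 1403 (53.9%) did not overlap. No gene can be without overlap in both splits of the same libraries, so neither count is independent of the other. Of these 1403, 774 were higher and 629 lower in the libraries with Xist.

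Which genes differed along that line can be seen in values that were singled out after they were seen. Fth1 was at 7512, 8392, 33144 and 17131 CPM in CYR61 replicates 1 to 4, and at 18225, 10478, 7485 and 21312 CPM in control replicates 1 to 4. In both groups the libraries with Xist (CYR61 replicates 1 and 2, control replicates 2 and 3) held the lower values. Lyz2 ran the same way, at 7786, 7374, 17234 and 11018 CPM in CYR61 libraries, against 11535, 7965, 6186 and 11114 CPM in control libraries. The platelet and leukocyte signalling protein Plek ran the other way, at 804, 814, 274 and 329 CPM in CYR61 libraries, against 376, 771, 859 and 337 CPM in control libraries. So did the inhibitory lectin Clec12a, at 767, 717, 395 and 350 CPM in CYR61 libraries, against 382, 751, 852 and 400 CPM in control libraries. The transferrin receptor Tfrc, which takes up iron, was at 498, 469, 81.4 and 110 CPM in CYR61 libraries, against 153, 577, 754 and 99.7 CPM in control libraries, opposite to ferritin. Tmsb4x differed little between control libraries, at 6851, 6736, 6832 and 6666 CPM.

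Of the 1403 genes, 921 were on the same side in the CYR61 libraries without overlap and 159 on the opposite side. In the CYR61 libraries the Xist split is also the date split, so the 921 cannot be laid to either. The share of all resting genes without overlap there was not counted. The 15 resting genes of at least 500 CPM with the largest spread over the control libraries all split this way. In libraries with Xist 10 were lower and 5 higher, and 14 did so in CYR61 libraries too. They were picked by their spread over the same control libraries, so their split there is a description and not a result. By list, the resting members lower in control libraries with Xist were 14 of 31 for lysosome genes, 9 of 20 for the respiratory chain, 7 of 13 for NRF2 targets and 5 of 9 each for iron handling and immediate early genes. Higher members were 3, 2, 0, 1 and 0 in those lists. Complement had 4 of 5 higher and the unfolded protein response 4 of 8. Beside them, 24.2% of all resting genes were lower and 29.7% higher in those libraries, and no list was tested. The Xist split was not among the labelled groups, its part in these differences was not tested, and it rests on 2 libraries a side.

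**Figure D3:**
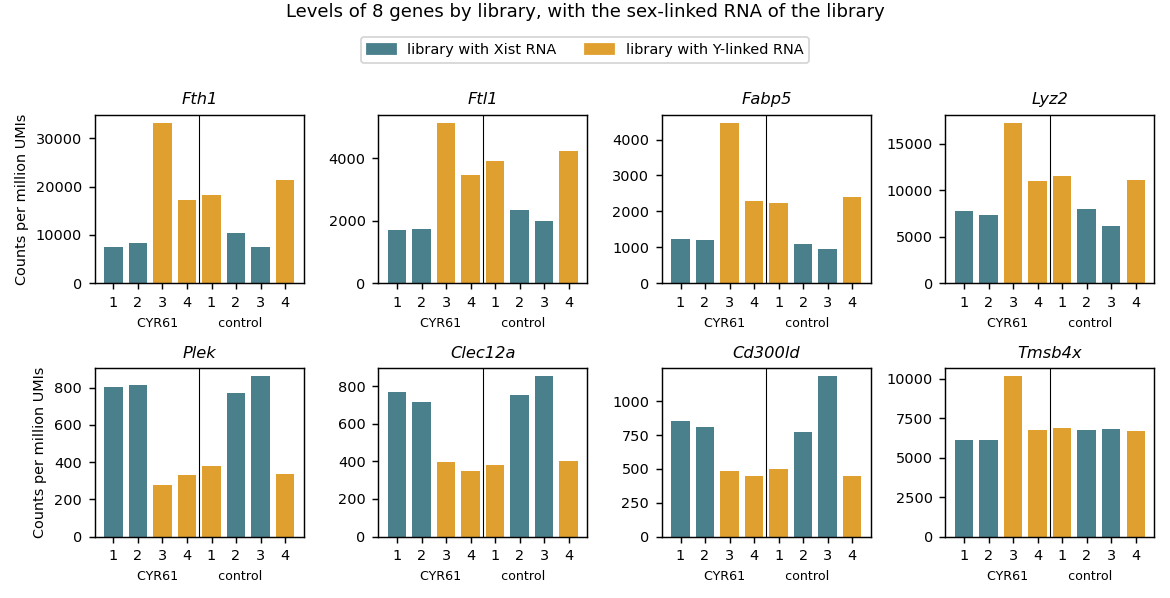
CPM of 8 resting genes in each library, bars from 0, CYR61 replicates left of control replicates, coloured by whether the library held Xist or Y-linked RNA. Fth1, Ftl1, Fabp5 and Lyz2 are lower and Plek, Clec12a and Cd300ld higher in the libraries with Xist, while Tmsb4x lies between 6666 and 6851 CPM in the control libraries.

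Cells within a library varied most in a few abundant products. The measure was the variance of Pearson residuals of a gene's UMIs given each cell's total, which is near 1 where cells differ by counting alone. Its median over genes was 1.10, 1.05, 0.975 and 1.21 in control replicates 1 to 4. Of 4277 genes evaluated, 36 (0.842%) reached 1.5 in all 4 libraries, and 21 of the 36 did so in all CYR61 libraries too. Just inside the minimum stood Ccdc88a at 1.54, Ftl1 at 1.53 and mt-Cytb at 1.505, and just outside it Dio2 at 1.48, Ankrd11 at 1.46 and Mrc1 at 1.44. This measure grows with a gene's level and with the cells' depth, so cells were also thinned to 500 UMIs. Only 1057 genes were then high enough to be evaluated, and Mki67, Top2a, Kcnq1ot1, Ptbp2 and Xrn1 of the 36 were not in every library. Of the 36, 7 reached 1.5 in all 4 libraries, which were 3 ribosomal RNAs, Malat1, Spp1, Mmp12 and Ctsl.

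Malat1 had residual variances of 6.43, 5.47, 7.39 and 16.1 in control replicates 1 to 4, and 2.99, 2.48, 2.55 and 8.36 after thinning. At 500 UMIs a cell in replicate 4 held up to 67 Malat1 UMIs. As Malat1 stays in the nucleus, its share of a cell's UMIs is often read beside RNA quality, and its variation stands beside that of the ribosomal RNAs, with Rn18s at 26.1 to 48.9 and mt-Rnr2 at 18.6 to 40.9. Their part in it was not tested.

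Spp1 had residual variances of 4.06, 5.16, 7.65 and 4.70, and 2.22, 2.77, 2.55 and 2.21 after thinning. At 500 UMIs it was missing from 17.9, 22.8, 26.3 and 27.8% of cells, while the top 10% of cells held 32.1 to 34.3% of its UMIs. Mmp12 had 2.96, 6.98, 7.78 and 3.31, and 1.64, 2.82, 2.79 and 1.79 after thinning, higher in control replicates 2 and 3. It was missing from 8.62 to 22.5% of thinned cells, and its top 10% of cells held 24.8 to 30.7% of its UMIs. The cathepsin Ctsl had 2.80, 4.85, 7.14 and 4.66, and 1.55, 2.37, 2.53 and 2.26 after thinning. Mmp12 was also found in 72.7% of the 11 granule-rich control cells, at 1317 CPM, so its share of cells is not read as expression by itself. With granule cells kept, residual variances were higher, at 5.22 to 9.12 for Spp1 and 3.83 to 10.97 for Mmp12.

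Some other abundant genes passed at full depth but not in every library after thinning. Fth1 had residual variances of 4.34, 4.46, 4.08 and 5.94, Lyz2 3.28, 3.14, 3.98 and 3.77, Lpl 3.66, 2.52, 4.02 and 4.90 and Apoe 2.67, 3.17, 2.48 and 2.59. After thinning each had a control library under 1.5. With granule cells kept, Fth1 had 4.36 to 11.1 and Lyz2 4.38 to 6.15 over the control libraries. Mki67, a proliferation antigen, had 3.04, 2.97, 3.56 and 2.27, and the topoisomerase Top2a 2.39, 2.26, 3.24 and 4.02. There was no Mki67 UMI in 88.8 to 97.0% of thinned cells, and where Mki67 could be evaluated after thinning, in replicates 2 and 3, it had 1.87 and 1.84. The remaining named genes were Lars2, Neat1, Lgals3, Ctss, the Mir6236 locus, Tmsb4x, Kcnq1ot1, Cd36, Psap, Ctsd, Ptbp2, Clec7a, Atp6v0d2, Gpnmb and Fabp4, with lowest control values from 2.21 for Lars2 to 1.66 for Fabp4.

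**Figure D4:**
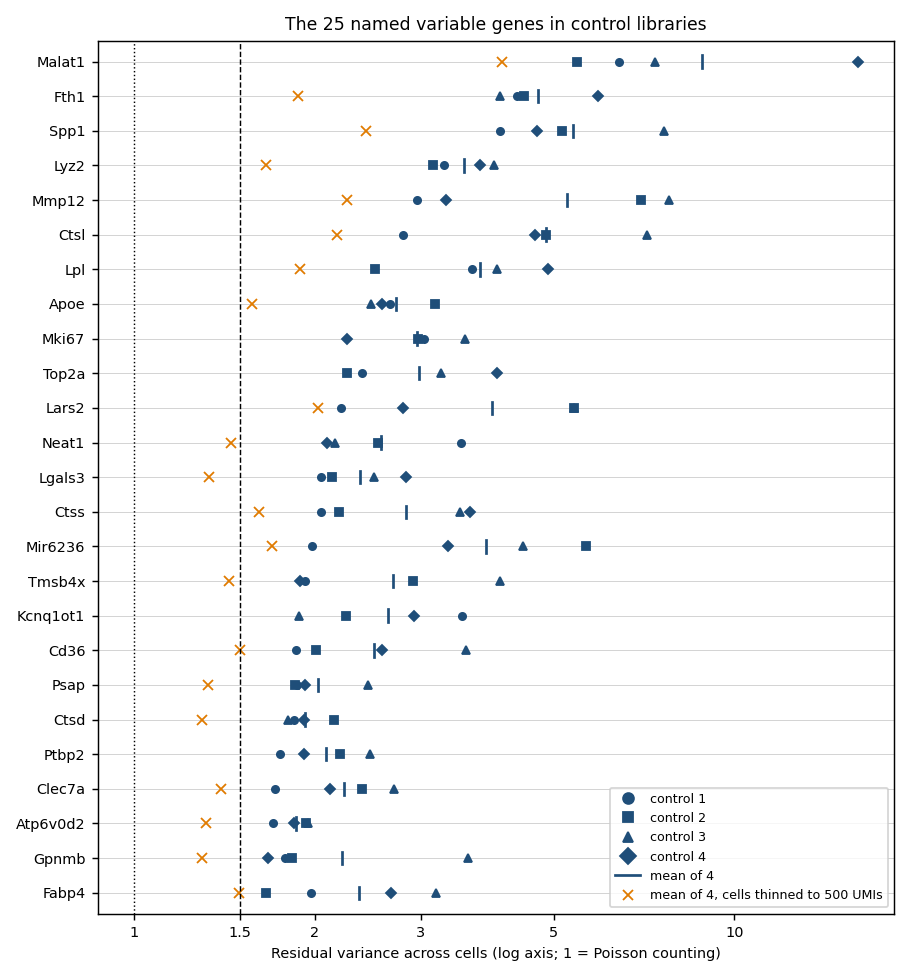
Residual variance over cells of the 25 named variable genes in the 4 control libraries, on a log axis, with a tick at the mean and a cross at the mean after thinning to 500 UMIs where all 4 libraries could be evaluated, and lines at 1.5 and 1. Malat1 leads with 5.47 to 16.1, and Spp1 and Mmp12 remain above 1.5 after thinning in every control library.

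Among these 25 genes the cells' residuals went together for a few pairs. Of 300 pairs, 10 had a Pearson's r of at least 0.2 in every control library, across 918, 280, 285 and 355 cells that share a library and differ in depth. Fth1 and Lgals3 had r of 0.40 to 0.47, and Fth1 went with Lyz2 at 0.23 to 0.47 and with Gpnmb at 0.23 to 0.55. Lgals3 went with Mmp12 at 0.26 to 0.40 and with Gpnmb at 0.23 to 0.47, and Spp1 with Lpl at 0.23 to 0.38. Lyz2 with Ctsd, Ctss with Atp6v0d2 and Psap with Gpnmb lay between 0.20 and 0.29. Lars2 and the Mir6236 locus had 0.36 to 0.77, and the Mir6236 locus counts reads that may belong to ribosomal RNA, so this pair is uncertain. Only Malat1 and Cd36 were at -0.1 or lower in every control library, at -0.25 to -0.16. The cycle genes Mki67 and Top2a had 0.19 to 0.88.

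**Figure D5:**
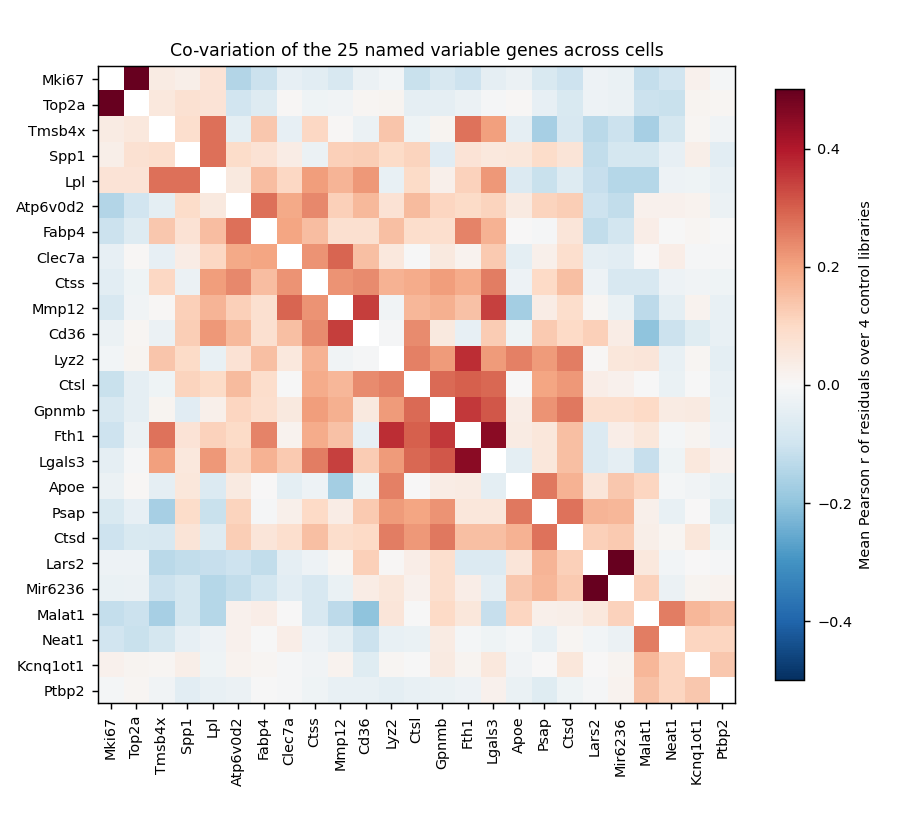
Mean over the 4 control libraries of Pearson's r between cells' residuals for each pair of the 25 named variable genes, ordered by average linkage. A block joins Fth1, Lgals3, Gpnmb, Ctsl and Lyz2, and the Malat1 and Cd36 pair, at -0.25 to -0.16, is negative in every control library.

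Small classes of cells were counted after thinning to 500 UMIs, which left out 104 control members with fewer UMIs and 233 CYR61 cells. Cells with at least 2 of 44 cell cycle genes made up 6.41, 27.3, 13.9 and 12.2% of control replicates 1 to 4. Replicate 2 stood above the others, with a 95% Wilson interval of 22.3 to 33.0%, and it also held the most Mki67, at 326 CPM, and Cenpe, a mitotic motor, at 182 CPM. Without thinning the shares were 21.7, 44.6, 33.7 and 39.2%. Of 20 granule-rich cells of both groups, which carry 5% or more of their UMIs from granule genes, 5 (25%) met the same rule. They are few, pool both groups and were not tested for cycling themselves, so they set no background for this class. None of the shares is therefore read as a measured fraction of cycling cells. CYR61 libraries averaged 10.7 ± 7.63% and control libraries 14.96 ± 8.85% (exact permutation p = 0.514, adjusted p = 0.617 over 6 classes).

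Monocyte genes were rare and came mostly from 1 library. Cells with Ly6c2, Ccr2 or Plac8 made up 0.117, 5.99, 0 and 0.597% of control replicates 1 to 4, where 0 of 274 cells in replicate 3 allows up to 1.38% by the Wilson interval. Ccr2, the receptor that brings monocytes out of marrow, had 9, 40, 7 and 2 UMIs, while Ly6c2 had 1, 0, 0 and 1. CYR61 libraries averaged 1.64 ± 0.569% and control libraries 1.68 ± 2.89% (exact permutation p = 1, adjusted p = 1), and 35% of the granule-rich cells met the rule. Control replicate 2 also held the most Il1rn, the interleukin 1 receptor antagonist, at 245 CPM against 44.2 to 60.4 CPM in the other controls. Without control replicate 2 the difference of CYR61 from control was 1.40 percentage points.

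Cells with a C1q gene were the largest class, at 25.4, 32.6, 35.8 and 18.8% of control replicates 1 to 4. Of the granule-rich cells, pooled over both groups, 15% met this rule. CYR61 libraries averaged 45.1 ± 12.1% and control libraries 28.1 ± 7.58% (exact permutation p = 0.0857, adjusted p = 0.129). Cells with an MHC class II gene or Cd74 made up 7.58, 3.75, 2.19 and 3.28% of control replicates 1 to 4, and 0% of the granule-rich cells. For this class the CYR61 mean was 10.3 ± 3.82% and the control mean 4.20 ± 2.34%, without overlap (exact permutation p = 0.0286, the smallest that 70 assignments allow, adjusted p = 0.0571). Cells with Il1b, Acod1, Saa3 or Ccl5 made up 4.51 ± 2.72% of CYR61 libraries, against a single thinned cell in the controls, in replicate 2 (exact permutation p = 0.0286, adjusted p = 0.0571). Neither difference passed the adjusted threshold. Depth per cell was made equal, but the share of barcodes listed elsewhere was not, and its part in these shares was not tested.

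Few resting genes were called between CYR61 and control in the main fit, which held no term for the Xist split. Of 2602 resting genes, 25 rose (0.961%) and 3 fell (0.115%) in CYR61 libraries, beside 102 of all 8662 genes tested that rose (1.18%) and 4 that fell (0.0462%). The 25 rose by 0.89 to 3.12 on the log2 scale, 5 of them in the type I interferon list and 16 in no list. In that list 33 of 35 tested genes rose, with a median log2 fold change of 3.33 against -0.02 for all genes. It took 0.800 ± 0.280% of UMIs in CYR61 libraries, against 0.0990 ± 0.00507% in control libraries, and only 16 of its 37 genes had reached 10 CPM in every control library. The share of cells with at least 2 of its genes was 79.1 ± 15.6% in CYR61 libraries, against 7.48 ± 1.89% in the controls (exact permutation p = 0.0286, adjusted p = 0.0571). Of the granule-rich cells 40% met the rule, but these pool both groups, so they give no background for untreated cells. The control share is not read as expression.

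Ly6e, an interferon-induced surface protein, was at 412, 350, 874 and 869 CPM in CYR61 replicates 1 to 4 and at 103, 59.3, 52.8 and 61.5 CPM in control replicates 1 to 4. Its log2 fold change was 3.12 (SE 0.37, edgeR adjusted p = 0.000515). The Fc receptor Fcgr1, which binds IgG, was at 424, 381, 543 and 495 CPM in CYR61 libraries, against 107, 96.9, 75.6 and 76.2 CPM in control libraries, a log2 fold change of 2.33 (SE 0.22, edgeR adjusted p = 0.000114). The groups did not overlap for either gene, and for Ly6e the later CYR61 libraries were higher than the earlier. The other named increases were the tether Bst2 at 2.30, the DNA sensor family genes Ifi204 at 2.17 and Mndal at 1.72, the interferon signal carrier Stat2 at 2.10, Parp14 at 2.05, Ms4a6c at 1.93, Slfn5 at 1.92 and the nuclear body protein Sp100 at 1.78 on the log2 scale. Mndal lost its call without control replicate 1, 2 or 3 and without CYR61 replicate 4, with log2 fold changes of 1.58 to 1.68 (edgeR adjusted p 0.0741 to 0.0994).

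The 3 decreases were small, and most alternatives ended their calls. Gclc, which makes the precursor of glutathione, was at 48.5, 54.0, 37.0 and 56.3 CPM in CYR61 libraries, against 72.5, 105, 116 and 110 CPM in control libraries, a log2 fold change of -1.05 (SE 0.23, edgeR adjusted p = 0.0391). Ifi27 averaged 62.7 ± 13.6 CPM in CYR61 libraries, against 123 ± 22.4 CPM in control libraries, a log2 fold change of -0.996 (edgeR adjusted p = 0.0367). Niban2 averaged 179 ± 30.1 CPM in CYR61 libraries, against 299.2 ± 14.6 CPM in control libraries, a log2 fold change of -0.78 (edgeR adjusted p = 0.0437). With a library left out the log2 fold changes were -1.20 to -0.96 for Gclc, -1.08 to -0.89 for Ifi27 and -0.83 to -0.72 for Niban2. No gene at all was called lower without CYR61 replicate 1, 2 or 4, and without CYR61 replicate 4 the count called higher was 67.

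Of the 26 lists, 17 held no called gene, with median log2 fold changes from -0.31 to 0.38. These included the lysosome, lipid and iron handling, V-ATPase, lineage regulators and both cell cycle lists. Outside the interferon list the called members were Fcgr1 of the surface receptors, C1qa of complement, Ccl5 and Cxcl16 of the chemokines, Saa3 and Ccl5 of the inflammatory mediators, Tap1 and Tapbp of MHC class I, Ms4a6c and Ifi27l2a of the monocyte list and Mmp13 of the matrix list, all higher, and Gclc of the NRF2 targets, lower. Tapbp lost its call in 6 of the 8 fits without a library, Tap1 and Cxcl16 in 5 each and Saa3 in 4, all of them also without CYR61 replicate 4, and their log2 fold changes there stayed above 0, at 0.94 to 1.18 for Tapbp, 1.44 to 1.66 for Tap1, 1.64 to 1.88 for Cxcl16 and 3.70 to 3.88 for Saa3. Mmp12 was at 3460, 3875, 4534 and 3021 CPM in CYR61 libraries, against 6005, 6057, 7022 and 4467 CPM in control libraries, a log2 fold change of -0.69 that did not pass (SE 0.20, edgeR adjusted p = 0.248). The calls needed each barcode to be assigned to a single table. Where every barcode that passed the gene, mitochondrial and granule rules counted in each table listing it, edgeR called 0 genes in either direction. In that run 175 genes had an unadjusted p under 0.05. It places the same barcodes in both groups, as control replicate 2 and CYR61 replicate 1 shared 1504 cells, so it cannot judge the calls. Under a stricter assignment, at least 3 times the UMIs of any other table, edgeR called 90 higher and 1 lower. Of these, 87 were also called in the main fit. With Xist or Y-linked RNA as a term, edgeR called 182 higher and 55 lower.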

How the data were processed

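Single-cell RNA was measured by HIVE in 8 libraries, 4 control and 4 CYR61, grouped by their labels. The deposited tables give whole-number counts of UMIs per gene and barcode, 5000 barcodes a table. The genome build is mm10, per the submitters' processing notes, and for the aligner, counter and cell calling the entry is: not given in the sources used here. No column lacked a sample. The members and gene lists were chosen with earlier results of these data known.

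Counts were summed per library over the kept cells and divided by their total (CPM). The main test was edgeR 4.0.16 in R 4.3.3, quasi-likelihood with TMM and filterByExpr, called under 0.05 after Benjamini-Hochberg adjustment. Each fit held all 8 libraries, so both dates and groups share an estimate of the spread. DESeq2 1.42.0 was an alternative. For shares of cells the test was an exact two-sided permutation over 70 assignments, in scipy 1.17.1 with Python 3.11.15. Variable genes had a clipped Pearson residual variance of at least 1.5 and a mean of at least 0.05 UMIs per cell in every control library. Scrublet in scanpy 1.11.5 marked 6 members (0.326%), which were left in. That is too few for the caller to have worked, so doublets are not removed. Depth and intervals stand with each value, and the steps were tested on simulated data. Positions are GENCODE's on mm10.

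Named genes were the 4 markers, the 20 highest in control libraries, up to 4 per list by level, the 25 most variable, and called resting genes and list members. Ribosomal and mitochondrial genes, ribosomal RNA, gene models, Xist and Y-linked genes were left out of the rankings. Genes outside this rule, among them genes at 0, Plek, Clec12a, Cd300ld and Tfrc, were chosen after their values were seen. Alternatives changed the cell minima, the barcode assignment, the granule rule, doublets, filters, model terms, tool, depth and libraries. Keeping cells with under 1% of UMIs from granule genes was added after seeing the data.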

Additional observations from a re-analysis of the deposited data

Results flagged for a closer look

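Of 163 groups of 4 libraries tested, 10 had a library far from the others by Dixon's criterion (gap over range above 0.829). As chance flags about 1 group in 20, the number flagged is near the share that chance gives. The libraries named below are therefore places to look and not results. CYR61 replicate 3, a library of the later date with Y-linked RNA, stood apart most often. It held Tmsb4x at 10147 CPM against 6129 to 6731 CPM in the other CYR61 libraries, and Spp1 at 5699 CPM against 3256 to 3331 CPM. Its lineage regulators took 0.429% of UMIs against 0.507 to 0.519%, and its monocyte list 1.25% against 0.742 to 0.827%. The share of inflammatory cells was 8.55% in CYR61 replicate 4 against 2.80 to 3.67% in the other CYR61 libraries.

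Among control libraries, replicate 2 held monocyte-gene cells at 5.99% against 0 to 0.597%, and inflammatory cells at 0.375% against 0% in the others, which is a single cell. Control replicate 1 held Ifi204 at 115 CPM against 141 to 144 CPM. In control replicate 3 the residual variance of Psap was 2.45 against 1.86 to 1.93, and that of Gpnmb 3.60 against 1.67 to 1.83.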

How the results depend on the processing

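Resting genes numbered 4926 at 20 CPM and 1303 at 100 CPM, against 2602 at 50 CPM, and 2688 to 2808 with a control library left out. Variable genes numbered 60 with at least 500 genes per cell, 23 with 3 times the UMIs of any other table, 62 with granule cells kept, 55 with granule genes under 1% of UMIs, 17 at a residual variance of 2 and 7 after thinning, against 36, and 39 to 53 with a control library left out.

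Genes higher in CYR61 numbered 0 with all cells of each table, 208 without the filter on low counts and 182 with the Xist term, against 102, and DESeq2 called 151. Genes lower numbered 0 with all cells, 2 at 10% mitochondrial UMIs, 1 with 3 times the UMIs, 2 without marked doublets, 2 with granule genes under 1%, 107 without the filter, 11 with the date as a term, 55 with the Xist term and 55 in DESeq2, against 4. Leaving out a library gave 67 to 94 higher, fewest without CYR61 replicate 4, and 0 to 7 lower. The date contrast gave 0 called genes under every alternative run. Of the resting genes lower in CYR61, Gclc lost its call in 13 alternatives, Ifi27 in 12 and Niban2 in 16. Same-numbered libraries deviated with correlations from -0.31 to 0.33, so the numbers do not pair them. With a replicate block 88 genes were higher and 3 lower.

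The difference in cycling cells turned to 0.142 percentage points with all cells and 1.15 without thinning. That in monocyte-gene cells turned to 1.79 at 10% mitochondrial UMIs, 0.823 with 3 times the UMIs, 0.624 with all cells, 0.315 with granule cells kept, 0.473 with granule genes under 1%, 0.0904 without thinning and 0.00710 with 1 more gene required. With granule cells kept, adjusted p fell to 0.0429 for MHC class II at 6.90 points, C1q at 17.5, inflammatory at 4.84 and interferon at 72.8. Leaving out a library gave -7.17 to -0.110 points for cycling, -0.593 to 1.40 for monocyte genes, 4.23 to 7.24 for MHC class II, 12.7 to 21.9 for C1q, 3.07 to 4.99 for inflammatory and 66.5 to 76.9 for interferon cells. The causes were not tested. At these depths a gene at 0 in every control library may stand at up to 0.888 CPM, and a 0 in a single library allows more.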
